A study of Mus musculus with 40 samples.

Results

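White adipocyte genes and adipokines were described here by 10 genes, each looked up by its symbol in the aortic and the renal count table. All 10 were found and all 10 passed the filter on low counts, among 55335 genes listed and 15122 tested in aortas and among 55382 listed and 15943 tested in kidneys. The adipokines were Adipoq (adiponectin), Lep (leptin), Cfd (adipsin) and Retn (resistin). Plin1, Plin4 and Cidec represented the lipid droplet, and Fabp4, Car3 and Thrsp were further genes that are abundant in fat cells.

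White adipocytes store triglycerides in a single large lipid droplet whose surface is covered by perilipins, and they release hormones that report the energy store to the brain, liver and vessel wall. Leptin restrains food intake and its mRNA is known to increase with fat cell size, whereas the mRNA of adipsin, the serine protease that starts the alternative complement pathway, is known to be low in obese rodents. Adiponectin enhances insulin sensitivity and resistin counteracts it in mice. Adipocytes surround the aorta as perivascular fat and lie in the sinus and around the capsule of the kidney and may stay attached at dissection.

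The libraries came from mice of the EC-EGFR model on a C57BL/6 background, in which EGFR flox/flox animals were crossed with B6.Cg-Tg(Tek-cre)1Ywa/J mice so that Cre under the Tie2 promoter drives deletion of exon 1 in endothelial cells. Control mice (WT) also carried this Cre but no loxP sites. Each genotype received either a standard diet with 10% of energy from fat (SFD, written SD in the labels) or a high-fat diet with 60% (HFD), which was given from 6 weeks of age for 18 weeks after a week of mixed chow. Both organs had been cleaned of neighbouring tissue before freezing, which for aortas is described as fat and connective tissue, and 5 libraries were available for each of the 4 groups in both tissues. The sex of the animals was not given in the sources used here, and nothing tied an aorta to a kidney of the same mouse.

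Total counts ranged from 17520161 to 36452741 in aortas and from 19643033 to 48833447 in kidneys. Expression is given as FPM, the counts per 1000000 counts of the normalised library total. Egfr did not separate the genotypes in either tissue by its counts over the whole gene, with group medians of 37.7 to 46.1 FPM in aortas and 38.5 to 55.3 FPM in kidneys. In each tissue, 1 pair of libraries from different genotypes held nearly the same data. Aortas R-1 (WT, SFD) and R-12 (KO, SFD) had a median chi-square of 0.0277 per gene and kidneys a12 (WT, HFD) and a1 (KO, HFD) one of 0.0269, when sampling noise alone gives 0.455 and the next closest pairs reached 1.6 and 1.62. These 4 libraries were also the deepest of their tissues, with at least 36419598 and 48788716 counts. The genotype of these libraries is uncertain, and values without them are given where a call rests on them. Each pair also shares its diet. Comparisons averaged over genotypes, with n = 10 per diet, therefore count nearly the same data as 2 libraries. Markers of the tissues were in place, with summed renal epithelial genes at 9200 to 11200 FPM in kidneys and at most 2.34 FPM in aortas, whereas Cdh5, Tagln and Cnn1 were listed at 0 in all 40 libraries and could not serve as markers of endothelium and smooth muscle.

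The 3 members that passed a test of the diet are shown by the 250 bases before their annotated start (RefSeq, GRCm38.p6), because they went in different directions. Lep lies on the plus strand of chromosome 6 (chr6:29059971-29060220), Cfd on the plus strand of chromosome 10 (chr10:79890603-79890852) and Thrsp on the minus strand of chromosome 7 (chr7:97417551-97417800). All are written 5′ to 3′ on the strand of the gene, with capitals for the C/EBP core TTNCNNAA or for CCAAT on either strand.
Lep: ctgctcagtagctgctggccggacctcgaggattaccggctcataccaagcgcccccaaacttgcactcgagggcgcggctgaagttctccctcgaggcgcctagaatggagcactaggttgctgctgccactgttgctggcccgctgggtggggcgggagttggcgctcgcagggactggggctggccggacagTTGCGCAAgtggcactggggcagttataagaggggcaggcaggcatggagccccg
Cfd: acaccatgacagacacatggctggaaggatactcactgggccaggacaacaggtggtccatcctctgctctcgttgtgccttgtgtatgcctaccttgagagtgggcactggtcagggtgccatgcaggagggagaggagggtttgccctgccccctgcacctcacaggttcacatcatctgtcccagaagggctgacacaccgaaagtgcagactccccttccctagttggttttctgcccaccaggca
Thrsp: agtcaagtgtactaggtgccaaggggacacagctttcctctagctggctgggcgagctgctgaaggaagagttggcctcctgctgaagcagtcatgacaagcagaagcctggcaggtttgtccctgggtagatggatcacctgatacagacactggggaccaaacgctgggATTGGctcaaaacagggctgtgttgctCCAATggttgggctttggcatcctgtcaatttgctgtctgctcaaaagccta
Lep held 1 C/EBP core, 55 bases before the start. Thrsp held CCAAT on the plus strand of the gene at 52 bases and on the other strand, written ATTGG here, at 79 bases. Cfd held neither. These letters are common, since 36.8% of 32851 such regions held the C/EBP core and 33.8% held CCAAT, and among the 8 members with such a region, 4 (Adipoq, Cidec, Lep, Plin1) held the former and 3 (Adipoq, Plin4, Thrsp) the latter. TATAAA (12.4% of regions) and AGGTCA (14% of regions), searched on both strands, were in no member. The searched motifs do not overlap each other in the 3 sequences shown.

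Under SFD the leading member in WT aortas depended on the measure. By FPM, Plin4 (447 ± 53.6) and Fabp4 (224 ± 76.5) lay above Cfd (129 ± 69.2, SD, n = 5). The exon length used for Fabp4 was 4489 bases, which covers its whole annotated gene from base 10204088 to 10208576. Its values per kb rest on that length. Per kilobase of exon, Cfd reached 140 ± 74.9 FPM (SD, n = 5), followed by Plin4 with 77.3 ± 9.29, Fabp4 with 50 ± 17 and Car3 with 44.2 ± 18.7 FPM per kb, and these neighbours overlapped in their spread except Plin4 and Fabp4. Adipoq, Thrsp, Cidec and Retn had means between 7.88 and 16.3, Plin1 had 3.22 ± 1.24 and Lep only 0.375 ± 0.39 FPM per kb. Under HFD the mean of Cfd in WT aortas was 18.3 ± 12.2 FPM per kb, below Plin4 (82.4 ± 10.1) and Fabp4 (45.2 ± 20.4). In kidneys of WT mice under SFD, Fabp4 (17.2 ± 10.2), Car3 (16.6 ± 8.67) and Cfd (15.4 ± 14) had the highest levels per kb and Lep the lowest (0.271 ± 0.364). Fabp4 is also made by endothelial cells and macrophages, Car3 by skeletal muscle and Plin4 by muscle, so these 3 are not restricted to fat cells.

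The level of adipocyte transcripts varied widely among libraries of the same group. Plin1, which coats the droplet and gates lipolysis, ranged from 9.12 to 22.3 FPM in aortas of WT mice under SFD and from 1.87 to 17.1 FPM under HFD. Cidec, which lets droplets fuse and grow, ranged from 6.54 to 28.6 and from 1.17 to 13.9 FPM. In kidneys the range was wider still, with Plin1 between 0.175 and 14.3 FPM in WT mice under SFD and between 0.0949 and 12.6 FPM in KO mice under HFD. In bulk tissue, fewer adipocytes and less RNA per adipocyte cannot be told apart.

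Most members varied with the droplet genes from library to library. After the mean of each group was removed, and over the 18 libraries per tissue left without the near-identical libraries, the score of Plin1, Plin4 and Cidec had Pearson's r of 0.913 with Adipoq, 0.907 with Cfd, 0.883 with Retn and 0.648 with Lep in aortas. In kidneys the values were 0.965, 0.945, 0.939 and 0.959. Fabp4, Car3 and Thrsp had 0.744, 0.942 and 0.807 in aortas and 0.858, 0.637 and 0.753 in kidneys. Plin4 in aortas did not follow, with r = −0.43, and stayed between 388 and 616 FPM in all 20 aortas, while its kidney levels were 1.3 to 25 FPM and had r = 0.939, although Plin4 is itself part of the score, as are Plin1 and Cidec. The genes outside the list with the most similar pattern were Ces1d (0.937), Adig (0.896), Lipe (0.88), Trarg1 (0.876) and Pck1 (0.865) in aortas and Abcd2 (0.965), Scd1 (0.9), Cd1d1 (0.89), Trarg1 (0.86) and Prkar2b (0.851) in kidneys. These are descriptions without a test, and the libraries of a tissue share their dissection and normalisation.

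**Figure D1:**
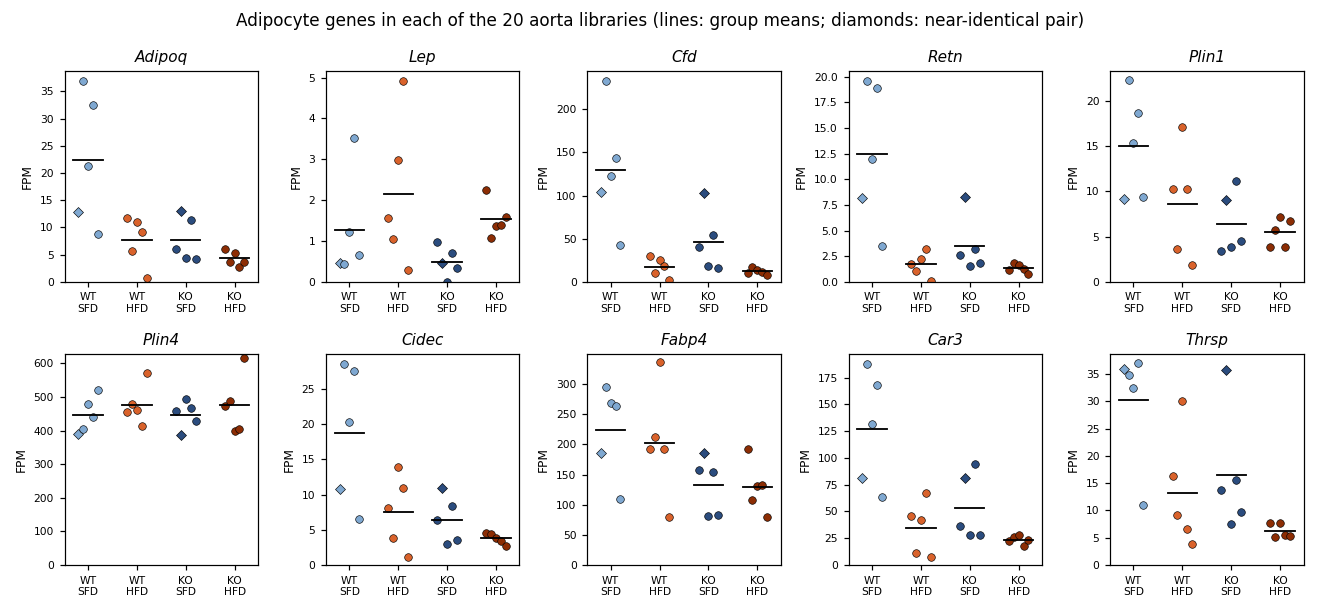
Level of each member in every aortic library (y axis, FPM, linear from 0), by genotype and diet; horizontal lines are group means of 5 libraries and diamonds mark the near-identical libraries R-1 and R-12. Cfd and Retn of WT mice lie lower under HFD without overlap, Lep of KO mice lies higher under HFD without overlap, and Plin4 stays between 388 and 616 FPM in every group.

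The question of the first comparison was whether HFD changed these genes in the aorta. Averaged over both genotypes, Cfd fell by 2.44 on the log2 scale, from 87.8 ± 67.9 to 14.5 ± 8.25 FPM (SD, n = 10 each), whereas Lep was at 0.874 ± 0.992 FPM under SFD and 1.84 ± 1.3 FPM under HFD. Cfd was the only member of 10 that passed (adjusted p = 0.0356, edgeR quasi-likelihood test with Benjamini-Hochberg adjustment over all tested genes), when 0.0265% of all tested genes were called. Without the near-identical pair, Cfd was lower by a log2 difference of −2.20 and no longer passed (adjusted p = 0.123).

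Cfd was 104, 233, 123, 144 and 43 FPM in WT mice under SFD and 29.6, 10.1, 24.8, 18.4 and 1.64 FPM under HFD. In KO mice it was 40, 103, 17.9, 53.8 and 15.8 FPM under SFD and 10.3, 17.1, 13.2, 11.5 and 8.05 FPM under HFD. Every WT library under HFD lay below every WT library under SFD, while the KO groups overlapped through 1 HFD library at 17.1 FPM. Within WT the log2 fold change was −2.93 ± 0.61 (SE, adjusted p = 0.244) and within KO −1.94 ± 0.59 (adjusted p = 0.987, both edgeR quasi-likelihood). The call of the averaged comparison was kept without R-5, R-6, R-10, R-13 or R-15 and was lost without any other of the 20 libraries (R-1, R-2, R-3, R-4, R-7, R-8, R-9, R-11, R-12, R-14, R-16, R-17, R-18, R-19, R-20), with edgeR adjusted p between 0.0298 and 0.0994 and log2 fold changes between −2.59 and −2.17.

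Retn, a cysteine-rich hormone of mouse fat, was 8.21, 19.6, 12, 18.9 and 3.47 FPM in WT mice under SFD and 1.76, 1.1, 2.22, 3.24 and 0.117 FPM under HFD. In KO mice it was 2.65, 8.22, 1.55, 3.23 and 1.88 FPM under SFD and 1.15, 1.8, 1.62, 1.28 and 0.79 FPM under HFD. The WT groups did not overlap and the KO groups did. Its log2 fold change was −2.87 ± 0.59 in WT (adjusted p = 0.244) and −2.14 ± 0.41 averaged over genotypes (adjusted p = 0.085, both by edgeR), so that no call was reached. In WT aortas, 2 members (Cfd and Retn) were lower without overlap, which held for 0.271% of all tested genes.

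Lep counted little in aortas. It was 0.45, 0.439, 1.22, 3.53 and 0.658 FPM in WT mice under SFD and 1.56, 1.04, 2.97, 4.92 and 0.293 FPM under HFD. In KO mice it was 0.976, 0.45, 0, 0.695 and 0.329 FPM under SFD and 2.24, 1.07, 1.37, 1.39 and 1.58 FPM under HFD. The 5 KO libraries under HFD all lay above the 5 under SFD, whereas the WT range under HFD spanned that under SFD. This made Lep the 1 member that was higher without overlap in KO mice, against 0.337% of all tested genes, but its log2 fold change of 1.63 ± 0.74 did not pass (adjusted p = 0.987, edgeR). In the average over genotypes it was 1.21 ± 0.51 (adjusted p = 0.638, edgeR).

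Adipoq was 12.8, 37, 21.3, 32.5 and 8.73 FPM in WT aortas under SFD and 11.7, 5.72, 11, 9.16 and 0.761 FPM under HFD. The 2 groups overlapped, and its averaged log2 fold change was −1.20 ± 0.37 (adjusted p = 0.468, edgeR). Car3, a carbonic anhydrase of the cytosol, had −1.52 ± 0.35 (adjusted p = 0.214), Thrsp, a nuclear factor of lipogenesis, −1.29 ± 0.34 (adjusted p = 0.359) and Cidec −1.03 ± 0.36 (adjusted p = 0.522, all edgeR). Plin1 (−0.51 ± 0.33), Fabp4, a fatty acid carrier (−0.09 ± 0.24), and Plin4 (0.09 ± 0.09) had the values nearest to 0. In all, 6 members were lower at an unadjusted p under 0.05 (Cfd, Retn, Car3, Thrsp, Adipoq, Cidec), as were 4.13% of all tested genes, and the median log2 fold change of the members was −1.12 against −0.00134 over all tested genes. None of the members was called by edgeR within a genotype, where the calls made up 0.00661% of genes in WT and 0% in KO, while at an unadjusted p under 0.05, 6 were lower in WT (1.65% of all tested genes), and 4 lower (2.82%) and 1 higher (1.74%) in KO. The paper, also with edgeR and the same thresholds, reports Cfd and Retn as lower under HFD in WT but not in KO aortas. The DESeq2 Wald test called Cfd (adjusted p = 0.000571) and Retn (adjusted p = 0.00107) in WT, where it called 0.0397% of genes, and in the average, with 0.112% of genes called, it called Cfd, Retn (adjusted p = 0.000148), Car3 (adjusted p = 0.00478) and Thrsp (adjusted p = 0.0352), all lower under HFD.

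Because the amount of adipocyte RNA differed between libraries, the diet was also fitted beside the mean log2 level of Plin1, Plin4 and Cidec in each library. In aortas this score left Cfd at −1.51 ± 0.26 (adjusted p = 0.057, with 0.0198% of genes called) and Retn at −1.21 ± 0.27 (adjusted p = 0.245), while Lep had 1.97 ± 0.48 (adjusted p = 0.37, all edgeR). Since Plin4 did not follow the other droplet genes in aortas, the fit was repeated with Plin1 and Cidec alone, a choice made after seeing the data. There Cfd fell by 1.46 on the log2 scale (SE 0.23, adjusted p = 0.0287, edgeR, with 0.0265% of genes called), and without the near-identical pair it had −1.30 ± 0.22 (adjusted p = 0.123, edgeR). The score is itself made of adipocyte genes, so a value beside it is a change relative to Plin1 and Cidec and not a change in amount.

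**Figure D2:**
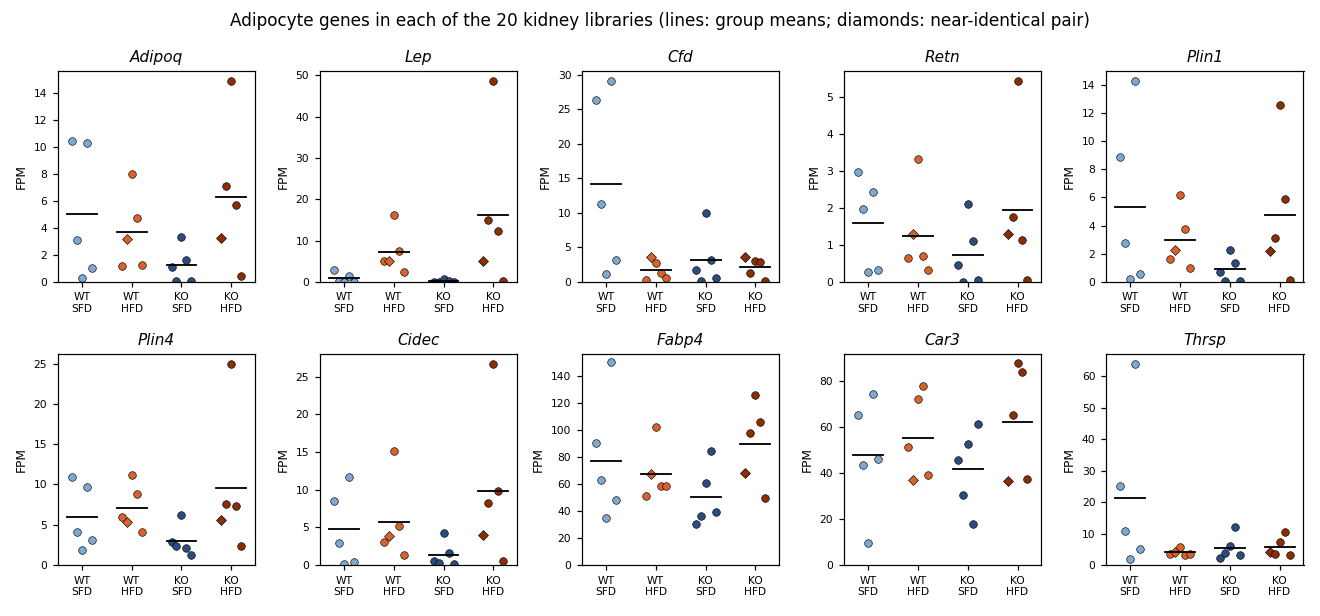
Level of each member in every renal library (y axis, FPM, linear from 0), by genotype and diet; horizontal lines are group means of 5 libraries and diamonds mark the near-identical libraries a12 and a1. Lep is near 0 in most SFD libraries and reaches 16.2 FPM in WT and 48.7 FPM in KO mice under HFD, while Cfd and Thrsp have their highest values, 29.1 and 63.9 FPM, in WT mice under SFD.

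In kidneys HFD went with more leptin mRNA. Averaged over genotypes, Lep rose by a log2 fold change of 4.63 ± 0.87 (SE, adjusted p = 0.00111, edgeR quasi-likelihood), from 0.553 ± 0.918 to 11.7 ± 14 FPM (SD, n = 10 each). It was the 1 member of 10 called, and 2.92% of all tested genes were called. Adipsin had the opposite sign, with 8.64 ± 10.8 FPM under SFD and 1.9 ± 1.4 FPM under HFD, and its log2 fold change of −1.78 ± 0.71 did not pass (adjusted p = 0.0985, edgeR).

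Lep was 2.83, 0.301, 0, 1.41 and 0 FPM in WT mice under SFD and 4.97, 5.14, 16.2, 7.51 and 2.4 FPM under HFD. In KO mice it was 0, 0, 0.698, 0.294 and 0 FPM under SFD and 5.16, 14.9, 48.7, 12.2 and 0.237 FPM under HFD. Single libraries made the groups overlap, namely a16 with 2.83 FPM against a15 with 2.4 FPM in WT and a5 with 0.237 FPM in KO. No Lep count was found in 5 of the 10 libraries under SFD, where a count of 0 allows up to 3 counts, and a5 had 5 counts beside 9 of Adipoq.

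Within KO, Lep rose by a log2 fold change of 6.32 ± 1.35 (adjusted p = 0.00727, edgeR), the 1 member called in this genotype, in which 2.16% of genes were called. Its size rests on few counts under SFD, 15 in a8, 7 in a9 and 0 in the others. Within WT it was 2.93 ± 1.08 (adjusted p = 0.131, edgeR), and the difference between both diet effects, 3.39 ± 1.72, did not pass (adjusted p = 1, edgeR). The calls in KO and in the average were kept whichever of the libraries was left out, with edgeR adjusted p up to 0.0229 and 0.00292. Without a12 and a1 the values were 6.55 ± 1.38 (adjusted p = 0.00957) and 4.78 ± 0.89 (adjusted p = 0.00156, both by edgeR).

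Cfd was 26.3, 11.2, 1.18, 29.1 and 3.14 FPM in kidneys of WT mice under SFD and 0.253, 3.58, 2.65, 1.22 and 0.479 FPM under HFD. In KO mice it was 1.77, 0.124, 9.92, 3.15 and 0.539 FPM under SFD and 3.6, 1.24, 3.06, 2.89 and 0.0475 FPM under HFD. All 4 groups overlapped. The log2 fold change was −3.07 ± 1.03 in WT (adjusted p = 0.0903) and −0.48 ± 1.00 in KO (adjusted p = 0.842, both by edgeR), and the DESeq2 Wald test called Cfd in WT (adjusted p = 0.031), as it did 2.41% of genes.

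Thrsp was 25, 10.7, 2.01, 63.9 and 5.05 FPM in WT kidneys under SFD and 3.54, 4.21, 5.62, 3.25 and 3.64 FPM under HFD. It fell by 2.40 on the log2 scale in WT (SE 0.70, adjusted p = 0.0463, edgeR), the 1 member called in a comparison that called 2.18% of genes, although the groups overlapped through the SFD libraries at 2.01 and 5.05 FPM. The call was lost without a11, a12, a13, a14, a15, a16 or a19, with edgeR adjusted p between 0.0174 and 0.181 over the 10 libraries. The log2 fold change ranged from −2.68 without a18 to −1.40 without a19. The call was also lost without a12 and a1 together (adjusted p = 0.0887, edgeR). In KO mice Thrsp was 2.23, 3.84, 6.01, 12.1 and 3.19 FPM under SFD and 4.21, 3.57, 7.18, 10.4 and 3.27 FPM under HFD, with a log2 fold change of 0.06 ± 0.68. The difference between both diet effects was 2.46 ± 0.97 (adjusted p = 1, edgeR). Of 9 brown adipocyte markers 8 had counts in kidneys, and their summed level ranged from 67.1 to 180 FPM there and from 79.1 to 93 FPM in WT kidneys under HFD. Cidea, a droplet protein typical of brown fat, fell by 4.48 on the log2 scale in WT (SE 1.30, adjusted p = 0.0456, edgeR). It was the 1 called of 5 tested brown markers. Of these 5, 4 were lower in WT under HFD, 3 at an unadjusted p under 0.05 (10.3% of all tested genes), with a median log2 fold change of −3.47. In KO all 5 were higher under HFD, with a median of 1.08. Under SFD all 5 were lower in KO than in WT, with a median of −2.99. Their median interaction was 4.98, with 0 called. Zic1 was listed at 0 in every library, as were the smooth muscle genes Tagln and Cnn1 on the same chromosome 9. Its 0 can therefore not be read as absence. The part of the brown adipocyte markers in the difference of Thrsp was not tested.

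Adipoq ranged from 0.262 to 10.4 FPM in WT kidneys under SFD, from 1.14 to 8 FPM in WT under HFD, from 0.0413 to 3.35 FPM in KO under SFD and from 0.427 to 14.9 FPM in KO under HFD. In KO mice 6 members were higher under HFD at an unadjusted p under 0.05 (Lep, Plin4, Cidec, Adipoq, Fabp4, Plin1), as were 9.16% of all tested genes. Their log2 fold changes lay between 0.84 for Fabp4 and 6.32 for Lep, and only Lep passed the adjusted threshold in edgeR, whereas the DESeq2 Wald test also called Plin4 (1.70, adjusted p = 0.0435) among 2.57% of genes. In WT mice Adipoq (−0.46 ± 0.94), Plin1 (−0.86 ± 1.00), Cidec (0.26 ± 1.01) and Plin4 (0.25 ± 0.57) all had standard errors larger than the values.

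Beside the score of Plin1, Plin4 and Cidec, 3 members passed in WT kidneys, where 2.11% of genes were called. Lep had a log2 fold change of 3.53 ± 0.40 (adjusted p = 1.6e-05), Cfd one of −2.93 ± 0.60 (adjusted p = 0.00588) and Thrsp one of −2.03 ± 0.47 (adjusted p = 0.0146, all edgeR). In KO kidneys, with 1.91% of genes called, Lep had 3.13 ± 0.53 (adjusted p = 0.0015) and passed, while Cfd with −2.07 ± 0.66 (adjusted p = 0.0894, both by edgeR) did not. Averaged over genotypes, with 2.57% of genes called, Lep rose (3.33 ± 0.32, adjusted p = 8.35e-07) and Cfd and Thrsp fell (−2.50 ± 0.44, adjusted p = 0.000994, and −1.57 ± 0.34, adjusted p = 0.00525, all edgeR) relative to the droplet genes. The interaction of Lep turned from 3.39 to −0.40 with this score (adjusted p = 0.965, edgeR). With Plin1 and Cidec alone as the score, chosen after seeing the data, the same 3 members passed in the average and 2.62% of genes were called, with edgeR adjusted p of 5.19e-07 for Lep, 0.000599 for Cfd and 0.00438 for Thrsp. Adipoq had an averaged value of −0.19 on the log2 scale beside the score of all 3 droplet genes (adjusted p = 0.66, edgeR).

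**Figure D3:**
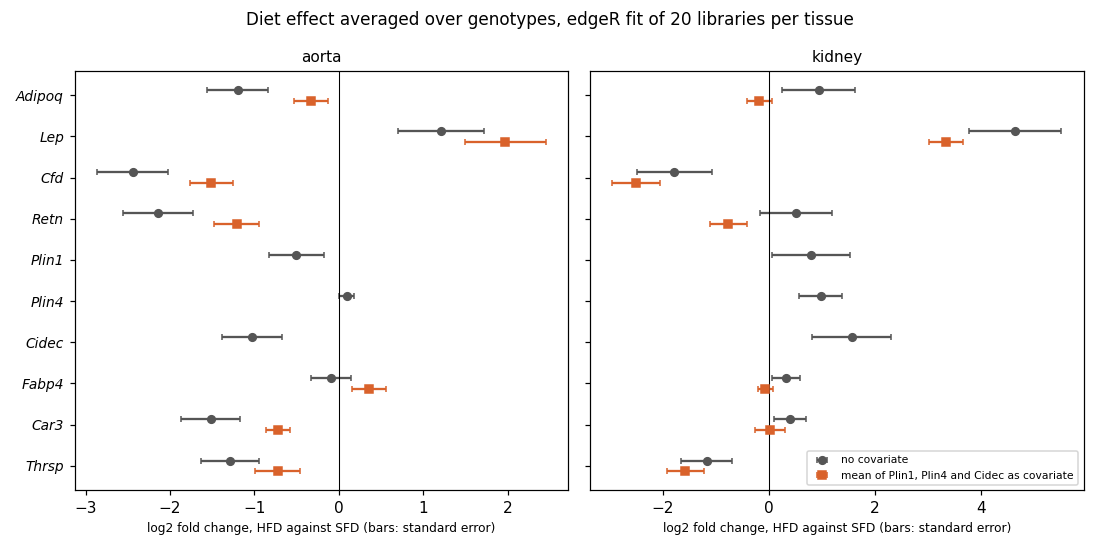
Log2 fold change of HFD against SFD averaged over genotypes (x axis, bars are standard errors of the edgeR fit on 20 libraries per tissue) for each member without a covariate (circles) and beside the mean of Plin1, Plin4 and Cidec (squares, not drawn for these 3 genes). Lep lies to the right of 0 and Cfd to the left of 0 in both tissues and both fits, with 4.63 and −1.78 in kidneys and 1.21 and −2.44 in aortas without the covariate.

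The opposite course of leptin and adipsin was visible within single libraries. Counts of Lep per count of Adipoq were 0 to 0.272 in WT and 0 to 0.208 in KO kidneys under SFD, and 1.59 to 4.37 and 0.556 to 3.26 under HFD. Counts of Cfd per count of Adipoq were 2.53 to 4.5 and 1.59 to 6 under SFD, and 0.222 to 1.12 and 0.111 to 1.11 under HFD. No kidney of either genotype under HFD overlapped in these ratios with a kidney under SFD, although Adipoq had only 1, 2 and 9 counts in KO kidneys a7, a10 and a5 and 6 counts in WT kidney a18. The highest Cfd ratios under HFD, 1.12 and 1.11, belonged to the near-identical libraries a12 and a1.

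In aortas, Lep per Adipoq was 0.0119 to 0.109 in WT mice under SFD and 0.134 to 0.537 under HFD, and 0 to 0.162 and 0.256 to 0.51 in KO mice. Cfd per Adipoq was 4.44 to 8.13 and 1.76 to 2.53 in WT mice, and 3.82 to 7.94 and 1.68 to 4.63 in KO mice. The diets did not overlap within either genotype for Lep and within WT for Cfd, whereas the KO aortas overlapped for Cfd. Retn per Adipoq was 0.397 to 0.643 in WT aortas under SFD and 0.151 to 0.354 under HFD, with no overlap, while the KO aortas (0.283 to 0.632 and 0.188 to 0.487) and the WT kidneys (0.235 to 1 and 0.148 to 0.556) overlapped. Adipoq itself had means of 22.5 ± 12.2 FPM under SFD and 7.66 ± 4.49 FPM under HFD in WT aortas (SD, n = 5), and the Lep levels of these groups overlapped. A ratio therefore does not tell a difference in Lep or Cfd from one in Adipoq. The share of all genes whose ratio to Adipoq separates the diets was not determined in either tissue. The ratios are given as a description with no test.

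**Figure D4:**
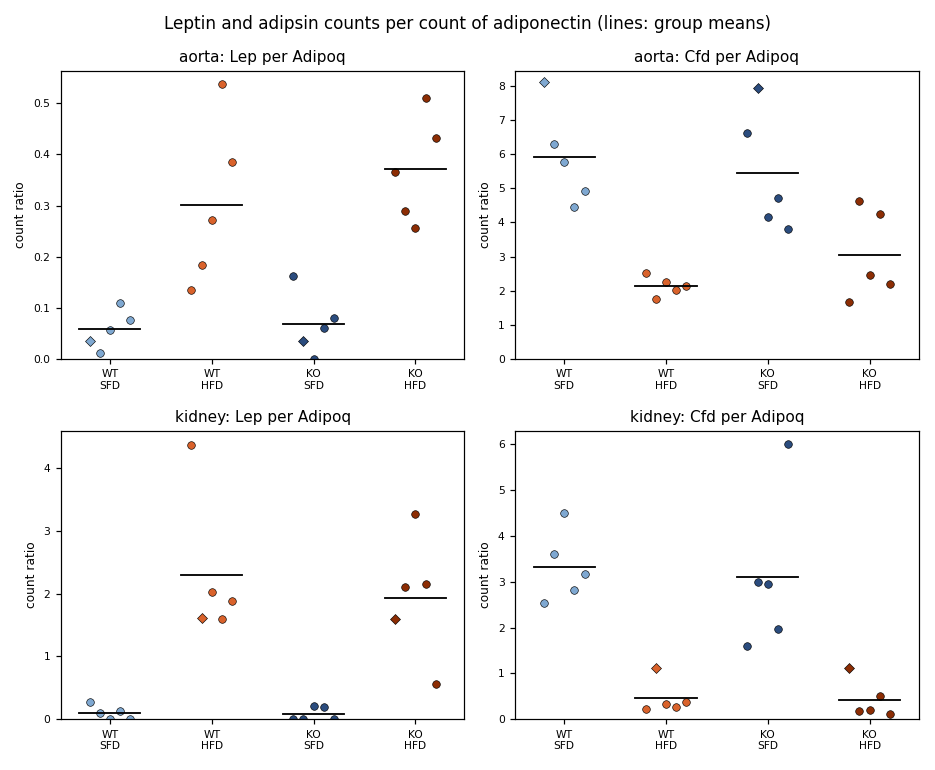
Counts of Lep (left) and Cfd (right) per count of Adipoq in each library (y axis, ratio of counts, linear from 0) by genotype and diet, for aortas (top) and kidneys (bottom); lines are group means of 5 libraries and diamonds mark near-identical libraries. In kidneys the Lep ratio is at most 0.272 under SFD and at least 0.556 under HFD, and the Cfd ratio is at least 1.59 under SFD and at most 1.12 under HFD.

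The mean of the 4 adipokines differed less between the diets than Lep and Cfd alone. Their mean log2 level minus that of Plin1, Plin4 and Cidec was −1.92 ± 0.41 in aortas of WT mice under SFD and −2.93 ± 0.77 under HFD (SD, n = 5), and −2.52 ± 0.56 and −2.73 ± 0.25 in KO mice. In kidneys the values were −0.68 ± 0.24 and −0.96 ± 0.47 in WT and −1.03 ± 0.61 and −0.83 ± 0.44 in KO mice. Lep minus the droplet genes was −2.75 ± 0.67 under SFD and 0.55 ± 0.62 under HFD in kidneys (SD, n = 10 each), and −5.67 ± 1.06 and −3.89 ± 0.59 in aortas. Cfd minus the droplet genes was 1.01 ± 0.83 and −1.76 ± 1.05 in kidneys, and 0.92 ± 0.72 and −1 ± 0.69 in aortas. Adipoq minus the droplet genes was −0.38 ± 0.67 and −0.36 ± 0.42 in kidneys, with −0.11 ± 0.28 and −0.52 ± 0.5 in WT and −0.65 ± 0.86 and −0.2 ± 0.29 in KO mice, and −1.53 ± 0.47 and −2.27 ± 0.65 in aortas. Retn minus the droplet genes was −1.31 ± 0.69 and −2.02 ± 0.49 in kidneys, and −2.59 ± 0.74 and −4.15 ± 0.67 in aortas. These differences are descriptions with no test, and in both tissues Retn was lower against the droplet genes under HFD, whereas Adipoq was lower in aortas and differed in sign between the genotypes in kidneys. In aortas the droplet mean includes Plin4, which did not follow the other members. Against Plin1 and Cidec alone the aortic steps of Adipoq, Cfd and Retn were smaller, with 0.32 ± 0.15 under SFD and −0.11 ± 0.49 under HFD for Adipoq (n = 10 each). The step of Lep was larger, from −3.81 ± 1.06 under SFD to −1.73 ± 0.54 under HFD. The mean of the 4 adipokines in WT aortas was then −0.29 ± 0.25 and −0.84 ± 0.46 (n = 5).

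**Figure D5:**
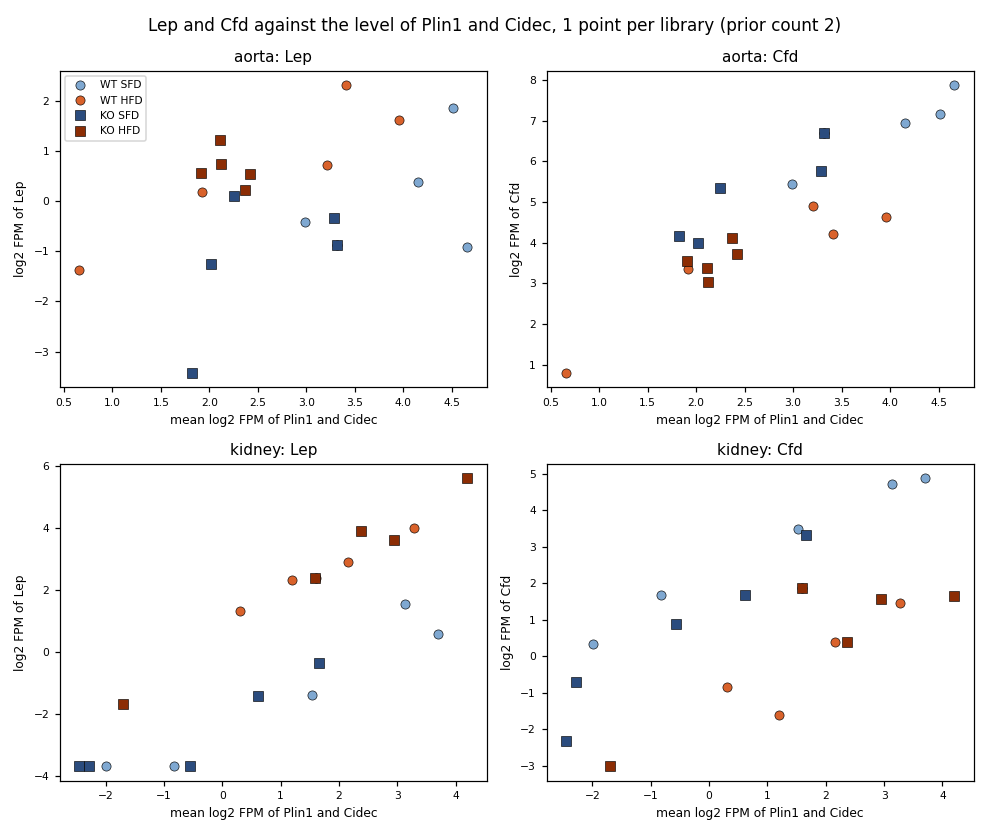
Log2 FPM of Lep (left) and Cfd (right) against the mean log2 FPM of Plin1 and Cidec (x axis) in each library, with a prior count of 2, for aortas (top) and kidneys (bottom); circles are WT, squares are KO, blue is SFD and red-brown is HFD, and the points of near-identical libraries lie on each other. At a like level of Plin1 and Cidec, kidneys under HFD lie higher for Lep and lower for Cfd than kidneys under SFD, and the values of the droplet genes span both diets.

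Deletion of EGFR was compared within each diet. In aortas under SFD, 9 of the 10 members had lower means in KO than in WT mice, with log2 fold changes from −0.76 (Fabp4) to −1.81 (Retn), and Plin4 was at 447 ± 53.6 and 447 ± 40.4 FPM. Of these, 7 were lower at an unadjusted p under 0.05 (Retn, Cidec, Adipoq, Plin1, Cfd, Car3, Fabp4), as were 0.899% of all tested genes, yet no member passed the adjusted threshold (adjusted p = 1 for each, edgeR) and 0% of genes were called, with 0 genes called by the DESeq2 Wald test as well. The median of the members was −1.29 against −0.00346 over all tested genes. Adipoq, with 12.8, 37, 21.3, 32.5 and 8.73 FPM in WT and 6.04, 13, 4.3, 11.4 and 4.14 FPM in KO mice, showed overlap of both groups, and KO library R-12 with 13 FPM is the near-identical one. Without R-1 and R-12 the log2 fold changes were −2.53 for Retn (adjusted p = 0.288), −2.09 for Cfd (adjusted p = 0.58), −1.95 for Cidec (adjusted p = 0.531) and −1.94 for Adipoq (adjusted p = 0.564, all edgeR), and none of the members was called. Beside the score of the droplet genes the fitted difference was 0.03 ± 0.30 for Adipoq, 0.03 ± 0.36 for Cfd, −0.18 ± 0.41 for Retn and 0.22 ± 0.77 for Lep. The plain difference of log2 levels from the droplet genes was lower in KO than in WT aortas, at −3.04 ± 0.6 and −2.14 ± 0.61 for Retn, 0.56 ± 0.75 and 1.27 ± 0.55 for Cfd and −1.81 ± 0.33 and −1.25 ± 0.43 for Adipoq (SD, n = 5, no test). That droplet mean includes Plin4, which did not differ between the genotypes. Against Plin1 and Cidec alone the KO and WT values lay closer together. They were −0.95 ± 0.47 and −0.52 ± 0.37 for Retn, 2.64 ± 0.57 and 2.89 ± 0.39 for Cfd and 0.27 ± 0.13 and 0.37 ± 0.17 for Adipoq. Among the adipocyte genes outside the members, 32 of 35 had a negative log2 fold change in this comparison, with a median of −0.35. All 6 tested lymphoid genes had a positive one, with a median of 2.46 and 1 (Lck) at an unadjusted p under 0.05. The summed lymphoid genes (Cd3e listed at 0 in every library) nevertheless had similar medians, 22.4 FPM in KO and 20 FPM in WT aortas. They ranged from 14.8 to 120 FPM in KO and from 15.8 to 22.5 FPM in WT aortas. Their part in the differences of the members was not tested.

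In kidneys under SFD all 10 members had lower means in KO mice, with log2 fold changes from −0.20 (Car3) to −2.60 (Plin1), and 0% of genes were called. Of these, 3 (Thrsp, Plin1, Cfd) had an unadjusted p under 0.05, as did 1.36% of all tested genes in the lower direction. Under HFD no member passed between genotypes in either tissue by edgeR, which called 0% of genes in both (DESeq2 called 25 genes in aortas and 0 in kidneys), with 1 member (Thrsp in aortas) lower at an unadjusted p under 0.05, as were 3.06% of all tested aortic genes. The interaction of diet and genotype called 0% of genes in both tissues. In kidneys all 10 members had a positive interaction, led by Lep (3.39 ± 1.72), Plin1 (3.29 ± 1.48) and Adipoq (2.80 ± 1.38), each with an adjusted p of 1 (edgeR).

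The other genes of the adipocyte programme were followed in a list of 37 genes for transcription factors, fat synthesis, fat breakdown, uptake and further adipocyte products, of which 35 were tested in aortas and 34 in kidneys. Me1, which supplies NADPH for fat synthesis, and Abhd5, the co-activator of adipose triglyceride lipase, were listed at 0 in every library. Both lie on chromosome 9, as do Tagln and Cnn1, and can likewise not be read as absent. In aortas none was called by edgeR under HFD in either genotype or in the average, where 1 was higher and 7 were lower at an unadjusted p under 0.05, against 2.57% and 4.13% of all tested genes. Fasn, the fatty acid synthase, had an averaged log2 fold change of −0.65 ± 0.14 (adjusted p = 0.143, edgeR) and Lpl, which frees fatty acids from circulating triglycerides, −0.48 ± 0.12 (adjusted p = 0.285, edgeR).

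In kidneys of WT mice 3 of the 34 genes were called lower under HFD and none higher, when 2.18% of all tested genes were called. At an unadjusted p under 0.05 by edgeR, 3 were higher and 10 lower, as were 9.12% and 10.3% of all tested genes. Lpl fell by 1.78 on the log2 scale, from 1240 ± 206 to 362 ± 89.8 FPM, Fasn by 1.26 (adjusted p = 0.0197) and Cd36, a fatty acid translocase, by 0.73 (adjusted p = 1.67e-06, edgeR). In KO kidneys, where 2.16% of all tested genes were called, 2 were called lower (Lpl by 1.56 and Cd36 by 0.71). The 3 called higher were Sncg (0.88 ± 0.20), Cebpa, a transcription factor of adipogenesis (0.59 ± 0.14), and Pck1, the enzyme that opens gluconeogenesis and glyceroneogenesis (0.59 ± 0.17). At an unadjusted p under 0.05 by edgeR, 6 of the 34 were higher and 6 lower, as were 9.16% and 10.4% of all tested genes. In the average, with 2.92% of all tested genes called, Sncg was called higher and Fasn, Cd36 and Lpl lower. Lpl, Cd36, Cebpa and Pck1 are also made by renal cells, and Pck1 was at 2600 ± 745 FPM in WT kidneys under SFD when Adipoq was at 5.02 ± 4.99 FPM. The median of the 34 genes was −0.0447 in the average, and that of the 10 members was 0.649.

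Markers of neighbouring cells were read beside these results. In kidneys 2 of 4 macrophage genes, Lyz2 and Adgre1, were called higher in the average (0.68 ± 0.15 and 0.67 ± 0.21), as was Pi16 of adipose stroma (0.60 ± 0.16). Of all tested genes 2.92% were called there. Of the other macrophage genes, which were not called, Cd68 had 0.68 ± 0.14 and Csf1r −0.26 ± 0.07. At an unadjusted p under 0.05 by edgeR, 3 of the 4 were higher and 1 lower, as were 14.5% and 15.4% of all tested genes. The summed macrophage genes ranged from 79.1 to 113 FPM in WT under SFD and from 86.7 to 126 FPM in WT under HFD. Of the skeletal muscle list, Pvalb, which renal tubules also make, rose by 1.45 ± 0.19, and its summed genes were at 20.6 to 60.6 FPM in WT under SFD and 54 to 82.9 FPM in WT under HFD. In aortas the summed stroma genes had medians of 1030 FPM in WT under SFD and 714 FPM in WT under HFD, with overlap, and the summed brown adipocyte genes had medians of 116 and 103 FPM. The summed macrophage genes reached 2050 FPM in 1 aorta of the KO mice under HFD, with a group median of 292 FPM. Of the 9 brown markers 7 were tested in aortas and 0 were called under HFD. In WT mice 5 had a positive and 2 a negative log2 fold change, with a median of 0.253. In KO mice 3 were positive and 4 negative, with a median of −0.197. The highest single value of Ucp1 was 7.85 FPM under SFD and 74.5 FPM under HFD in WT mice. The part of these cell types in the diet differences of Lep and Cfd was not tested.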

How the data were processed

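RNA-seq of 20 aortas and 20 kidneys (5 per genotype and diet) was analysed from 2 deposited tables of raw counts per gene, which the authors obtained with featureCounts on GRCm38/mm10; the paper's methods name TopHat2 for mapping, while the submitters' processing notes name HISAT2 2.1.0, and no strand setting was given in the sources used here. Rows were matched by gene symbol, and groups came from the labels of organ, genotype and treatment. For each tissue, 1 quasi-likelihood model over the 4 groups was fitted with robust estimation in edgeR 4.0.16 under R 4.3.3, after TMM normalisation and the filter filterByExpr, and p-values were adjusted over all tested genes by Benjamini-Hochberg. FPM are counts per 1000000 counts of the TMM library size, and log2 levels used a prior count of 2. A diet effect was called with an adjusted p under 0.05, a fold change over 1.5 and a mean over 5 FPM in a compared group, and a genotype effect or interaction with an adjusted p under 0.05. P-values measure the spread between libraries of a group, each taken as 1 mouse. For the near-identical pairs this may not hold. The spread between libraries as a biological coefficient of variation came to 29.0% (aorta) and 22.3% (kidney). Counting error adds to the spread at low counts.

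The members and gene lists were chosen with earlier results of these data known. All 10 members were named, with the list genes called and the 5 genes per tissue whose pattern was most like the droplet score. Lists of other adipocyte genes, brown adipocytes, adipose stroma, macrophages, lymphoid cells, skeletal muscle and renal epithelium were read by counts, medians and summed levels. Single genes of these lists are also given, some of which were not called. Lengths came from GENCODE release 21 of the mouse and promoters from RefSeq (GRCm38.p6). Alternatives were DESeq2 1.42.0 (size factors or Wald test), no filter, leaving out the near-identical libraries or each replicate, fits of the compared groups, and scores of the droplet genes as covariate, of which that of Plin1 and Cidec was added after seeing the data. Scripts were tested on simulated counts, where the edgeR test recovered 98.5% of 200 genes changed 4-fold in aortas and 97% in kidneys for the diet effect in WT. It also called 8 unchanged genes in aortas and 2 in kidneys. The changed genes all lay over 5 FPM, and each gene was drawn independently, without variation shared between genes. The recovery therefore does not tell whether a member that was not called is unchanged. Cfd and Retn in WT aortas, at −2.93 and −2.87 on the log2 scale, did not pass.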

Additional observations from a re-analysis of the deposited data

Results flagged for a closer look

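Of 80 groups of 5 libraries (10 genes, 4 groups, 2 tissues), 6 held a value that stood apart from the other libraries of its group by Dixon's criterion, which chance alone gives in about 1 group in 20. Lep was 3.53 FPM in aorta R-4 of the WT mice under SFD, when the other libraries lay between 0.439 and 1.22 FPM. Retn was 8.22 FPM and Thrsp 35.8 FPM in aorta R-12 of the KO mice under SFD, against 1.55 to 3.23 and 7.6 to 15.5 FPM in the others, and R-12 is the library that is nearly the same as WT aorta R-1. Thrsp was 11 FPM in aorta R-5 of the WT mice under SFD, below the 32.4 to 37 FPM of the others. In kidneys, Plin4 was 25 FPM in a3 of the KO mice under HFD (others 2.33 to 7.55 FPM) and Cidec was 15.1 FPM in a13 of the WT mice under HFD (others 1.36 to 5.14 FPM).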

How the results depend on the processing

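In kidneys the higher Lep in the average and in KO mice under HFD kept its direction and its call under each alternative run, with DESeq2 size factors or its Wald test, without a filter, without the near-identical libraries, beside either score and without each replicate. Cfd of aortas in the average kept its direction, but its call was lost without a filter (adjusted p = 0.187), without the near-identical libraries (0.123), beside the score of Plin1, Plin4 and Cidec (0.057) and without 15 of the 20 libraries, all by edgeR. Thrsp of WT kidneys lost its call without a filter (adjusted p = 0.121), with the compared groups alone (0.131) and without the near-identical libraries (0.0887, all by edgeR), while its log2 fold change of -2.40 came to -2.38, -2.39 and -2.41. The causes were not tested. No paired analysis was possible because the groups share no replicate numbers.

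Few aortic genes were called, and their number changed with the method. The DESeq2 Wald test called 6 genes for HFD in WT, 2 in KO, 17 in the average and 25 for KO against WT under HFD. Without a filter 0 genes were called in WT and 2 in the average, with the compared groups alone 0 in WT. Without the near-identical libraries 1 gene was called in the average and 21 for KO against WT under HFD. Beside the score of Plin1, Plin4 and Cidec 0 genes were called in WT and 1 in KO, and beside that of Plin1 and Cidec 2 and 1. Leaving out 1 replicate gave 0 to 1 genes in WT, 1 to 6 in the average and 0 to 2 for KO against WT under HFD.

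The adipokine level relative to the droplet genes, HFD minus SFD, was -1.86 in WT and -0.95 in KO aortas without Lep in the mean, and -0.55 in WT aortas without Plin4. In kidneys it was -1.5 in WT and -0.81 in KO without Lep and -0.15 in KO without Plin4, and -0.04 to 0.35 in KO without 1 replicate.

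The values that follow, none of which was called, changed sign. Several had not been near 0, among them Adipoq (-1.52), Cfd (-1.48), Lep (-1.33), Car3 (-1.25), Thrsp (-0.87) and Fabp4 (-0.76) for KO against WT aortas under SFD, and in kidneys Retn in KO under HFD (1.39), Adipoq in the average (0.94) and the interaction of Lep (3.39). These named values changed sign only beside a score, where a value is relative to the droplet genes and not a change in amount. Without 1 replicate, Adipoq for KO against WT aortas under SFD ranged from -1.79 to -1.27 and Cfd from -2.02 to -1.16. Beside the score of Plin1, Plin4 and Cidec, Fabp4 of aortas under HFD had 0.502 in WT, 0.205 in KO and 0.353 in the average, and beside that of Plin1 and Cidec 0.526, 0.216 and 0.371, where Plin4 in WT had -0.0482. For KO against WT aortas under SFD, the first score gave 0.0276 for Adipoq, 0.221 for Lep, 0.0309 for Cfd, 0.00863 for Fabp4, 0.136 for Car3 and 0.0908 for Thrsp, and the second 0.14 for Lep, 0.0298 for Cfd, 0.0053 for Fabp4, 0.0793 for Car3 and 0.0912 for Thrsp. Plin4 in this comparison had 0.00066 without the near-identical libraries and 0.0182 with the compared groups alone, and Fabp4 of KO aortas under HFD had 0.118 without the former. In kidneys under HFD the first score gave KO values of -0.865 for Retn, -0.121 for Car3 and -1.11 for Thrsp, averages of -0.185 for Adipoq, -0.765 for Retn and -0.0679 for Fabp4, and an interaction of -0.397 for Lep. The second gave -0.747, -0.0834 and -1.05, then -0.0892, -0.673 and -0.04, and -0.387.

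Leaving out 1 replicate also turned the sign of uncalled values. In aortas under HFD, Fabp4 ranged from -0.406 to 0.0585 in WT, from -0.225 to 0.118 in KO and from -0.221 to 0.0108 in the average, Plin1 from -0.378 to 0.0704 and Plin4 from -0.0153 to 0.151 in KO. Plin4 ranged from -0.0462 to 0.0601 between the genotypes under SFD. In WT kidneys under HFD, Cidec ranged from -0.49 to 0.903, Fabp4 from -0.388 to 0.193 and Car3 from -0.0399 to 0.427. In KO kidneys Cfd ranged from -0.795 to 0.664 and Thrsp from -0.259 to 0.581.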
